A study of Mus musculus with 52 samples.

Results

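The sites described here were acetylated on H3K27 in mouse embryonic fibroblasts (MEF), carried no detected H3K27me3 there, and had an H3K27me3 peak in induced pluripotent stem (iPS) cells of both Mbd3 genotypes. They are peaks of the Mbd3+/+ iPS H3K27me3 list that overlapped the Mbd3flox/- iPS H3K27me3 list and both MEF H3K27ac lists by at least 1 bp and overlapped no H3K27me3 peak of either MEF list. Of 26114 peaks in that iPS list, 10256 were shared by the flox/- iPS list, 2203 of these lay on acetylated chromatin in both MEF lists, and 1265 also had no MEF H3K27me3 peak, which is 4.84% of the list and 12.3% of the shared peaks. The sites were thus selected on the peaks of 6 lists, whose values describe the set and support nothing about it. Over the whole +/+ iPS list, 39.3% of peaks overlapped the flox/- iPS H3K27me3 list, 23% and 23.5% the flox/- and +/+ MEF H3K27ac lists, and 48.5% and 51% the flox/- and +/+ MEF H3K27me3 lists. All 43 lists of the study together held 928298 peaks.

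Chromatin was profiled by ChIP-seq while MEF were driven towards pluripotency with doxycycline-inducible Oct4, Sox2, Klf4 and Myc, and every reprogramming series carried these transgenes, with doxycycline added at 2 µg/ml. The groups were Mbd3flox/- cells (a floxed and a null allele) and Mbd3+/+ cells, each as MEF before doxycycline, on days 4 and 8 of doxycycline and as iPS cells, and Mbd3-/- embryonic stem (ES) cells, the only ES cells used here. The flox/- and -/- cells carried a complete GOF18 Oct4-GFP reporter and the +/+ cells its GOF18 deltaPE form, so genotype and reporter cannot be told apart. MEF were grown in serum medium and the later stages in 2i/LIF medium, so stage and medium cannot be told apart either, and no sorting step is given, so a peak can come from some of the cells. Antibodies were against H3K27ac, H3K4me3, H3K27me3, Mi2B, Mbd3 and Oct4. Each combination had 1 library and 1 clonal series per genotype, so no difference below has a replicate check. Intervals are 95% intervals that cover the counting of sites alone, and read depth is unknown.

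H3K27ac marks active promoters and enhancers, and H3K27me3, laid down by Polycomb repressive complex 2 on the same lysine, marks silenced developmental genes. One lysine can carry only one of the 2 marks, whereas H3K4me3, the promoter mark, can occur beside H3K27me3 in the bivalent state typical of pluripotent cells. NuRD is a complex that couples histone deacetylation to nucleosome remodelling. Mi2B supplies its ATP-driven remodelling activity, and Mbd3 is a structural subunit.

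The sites were short. Their median width was 327 bp (107 to 2492 bp), with deposited H3K27me3 scores of 50.0 to 613.8 and a median of 79.5 in the +/+ iPS list. At 1107 of the 1265 sites (87.5%) every base lay under both MEF H3K27ac lists, and at 1191 at least 50% of the bases did. The MEF acetylation was wider than the sites: a flox/- MEF H3K27ac peak covered the centre of 96.3% of them and positions 2 kb away at 64.8%, and a +/+ MEF peak covered 96.8% and 65.8%. The nearest MEF H3K27me3 peak was a median of 19511 bp away. It was within 1 kb at 130 sites and at least 50 kb away at 403. At the edge of the rule, the 3 sites with the fewest bases under a MEF H3K27ac list shared 2, 4 and 6 bp with it, and the 3 excluded sites with the fewest bases under MEF H3K27me3 shared 14, 16 and 23 bp.

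Many of the sites were pieces of one region. Sites within 10 kb of each other formed 635 groups, of which 336 were single sites, 257 held 2 to 4 sites and 42 held 5 or more, with 299 sites in those 42. The largest group held 19 sites over 28567 bp at chr8:87294853-87323419 (mm9). Chromosomes 8 and 11 held 123 sites each (9.72%), beside 6.82% and 9.43% of all shared peaks, and chromosome X held 4. Sites of one group share their source, and counting each group once is among the alternatives given with the processing.

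MEF acetylation was lost from these sites far more completely in flox/- than in +/+ cells. On day 4 an H3K27ac peak remained at 432 of 1265 sites (34.2%, 31.6 to 36.8) in flox/- cells, against 718 (56.8%, 54.0 to 59.5) in +/+ cells. Among all 26114 peaks of the +/+ iPS list, which include these sites, the shares were 9.45% and 11.9%. The difference was -22.6 percentage points (-25.4 to -19.8), with 50 sites acetylated in flox/- cells alone and 336 in +/+ cells alone, beside 3.66% and 6.08% of the list. When the lists were cut to an equal summed peak length it was -13.0 points.

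By day 8 the gap had widened. H3K27ac was found at 63 sites (4.98%, 3.91 to 6.32) in flox/- cells and at 701 (55.4%, 52.7 to 58.1) in +/+ cells, beside 2.44% and 11.8% of the whole list. The difference was -50.4 points (-53.2 to -47.6), with 5 sites acetylated in flox/- cells alone, 643 in +/+ cells alone (1.1% and 10.5% of the list), 58 in both and 559 in neither. The flox/- day 8 list held fewer peaks (21237, against 39463 in +/+) but covered nearly as much sequence (91.0 Mb, against 97.2 Mb), and with equal summed lengths the difference was -48.2 points. The loss took different times in the genotypes: of the sites acetylated on day 4, 59 of 432 (13.7%) were still acetylated on day 8 in flox/- cells and 625 of 718 (87.0%) in +/+ cells. Between days 4 and 8 the share fell by 29.2 points in flox/- cells (interval -31.7 to -26.6), and in +/+ cells the difference was -1.34 points (-3.36 to 0.67).

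**Figure D1:**
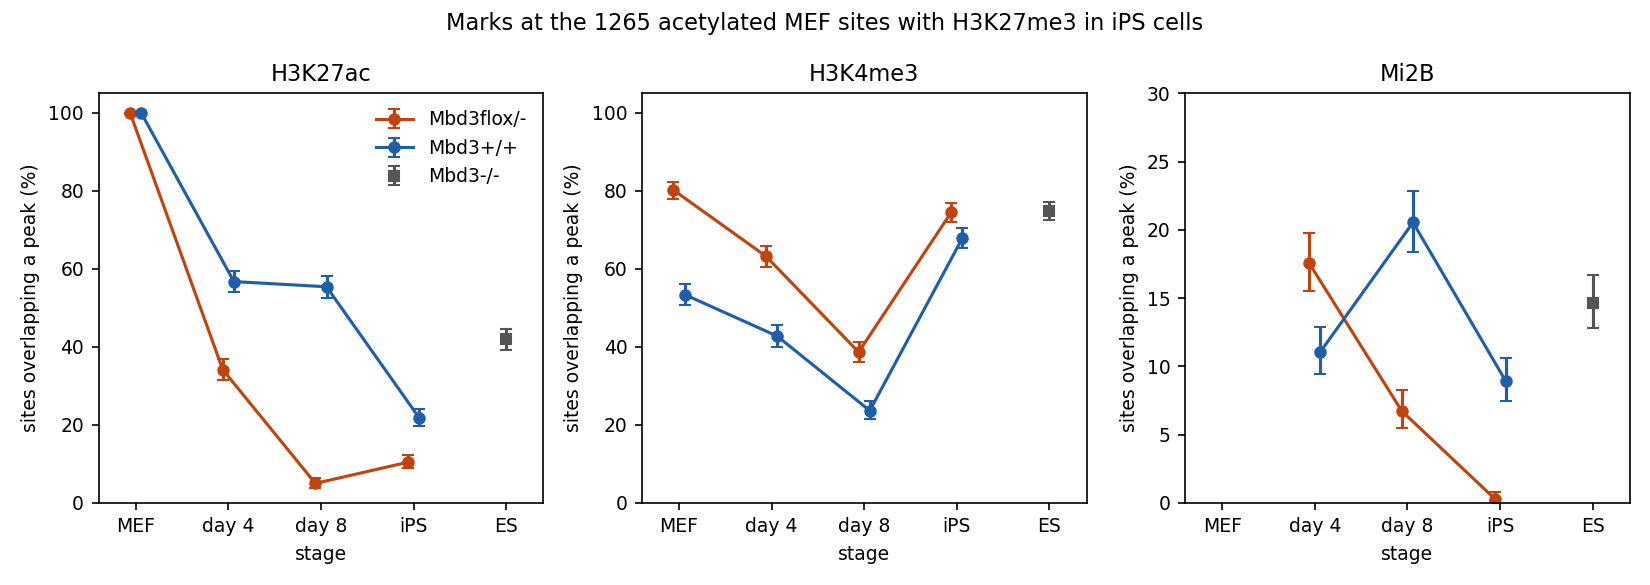
Share of the 1265 sites (vertical axis, percent) that overlap a peak of H3K27ac, H3K4me3 or Mi2B at each stage (horizontal axis), with 95% Wilson intervals over sites; the ES point is Mbd3-/-. H3K27ac is 100% in both MEF lists by the rule, no Mi2B list of MEF is plotted, and on day 8 the flox/- H3K27ac share is 4.98% against 55.4% in +/+ cells.

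In iPS cells, where H3K27me3 was present at every site by the rule, H3K27ac was found at 132 sites (10.4%, 8.87 to 12.2) in flox/- cells and at 276 (21.8%, 19.6 to 24.2) in +/+ cells, beside 3.99% and 7.87% of the whole list. The difference was -11.4 points (-13.7 to -9.15), with 41 sites acetylated in flox/- iPS cells alone and 185 in +/+ iPS cells alone (1.68% and 5.56% of the list). This direction depended on how the lists were cut. The flox/- list covered 64.2 Mb and the +/+ list 122.3 Mb. With equal numbers of top peaks the difference was -5.61 points (-7.73 to -3.53). With equal summed lengths it was 9.64 points (7.99 to 11.5), the other way round, and the cause was not tested. Of the sites acetylated in iPS cells, 22 of 132 (16.7%) had been acetylated on day 8 in flox/- cells and 229 of 276 (83.0%) in +/+ cells. Of the 132 acetylated in flox/- iPS cells, 91 (68.9%) were also acetylated in +/+ iPS cells, which is 91 of 276 from the other side.

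The commonest course in flox/- cells was no H3K27ac peak at any stage after MEF, at 796 sites (62.9%), followed by acetylation on day 4 alone at 296 (23.4%). In +/+ cells 430 sites (34.0%) had none after MEF, 419 (33.1%) were acetylated on days 4 and 8 but not in iPS cells, and 206 (16.3%) at all 3 stages. Courses were not counted over the whole list or in another set of sites. Whether they are particular to these sites was therefore not tested. The 206 were also under H3K27me3 in iPS cells by the rule. Whether the 2 marks lie on the same molecules cannot be told from peak lists of cell populations.

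The profile of H3K27ac around the sites differed on day 8. In flox/- cells a peak covered 3.71% of site centres and 5.38% of positions 2 kb away, so the centres were no higher than their surroundings. In +/+ cells it covered 49.2% of centres and 35.5% of positions 2 kb away, which keeps the shape seen in MEF. At 10 kb the values were 5.18% in flox/- and 14.1% in +/+ cells on day 8, beside 29.7% in flox/- and 32.6% in +/+ MEF.

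**Figure D2:**
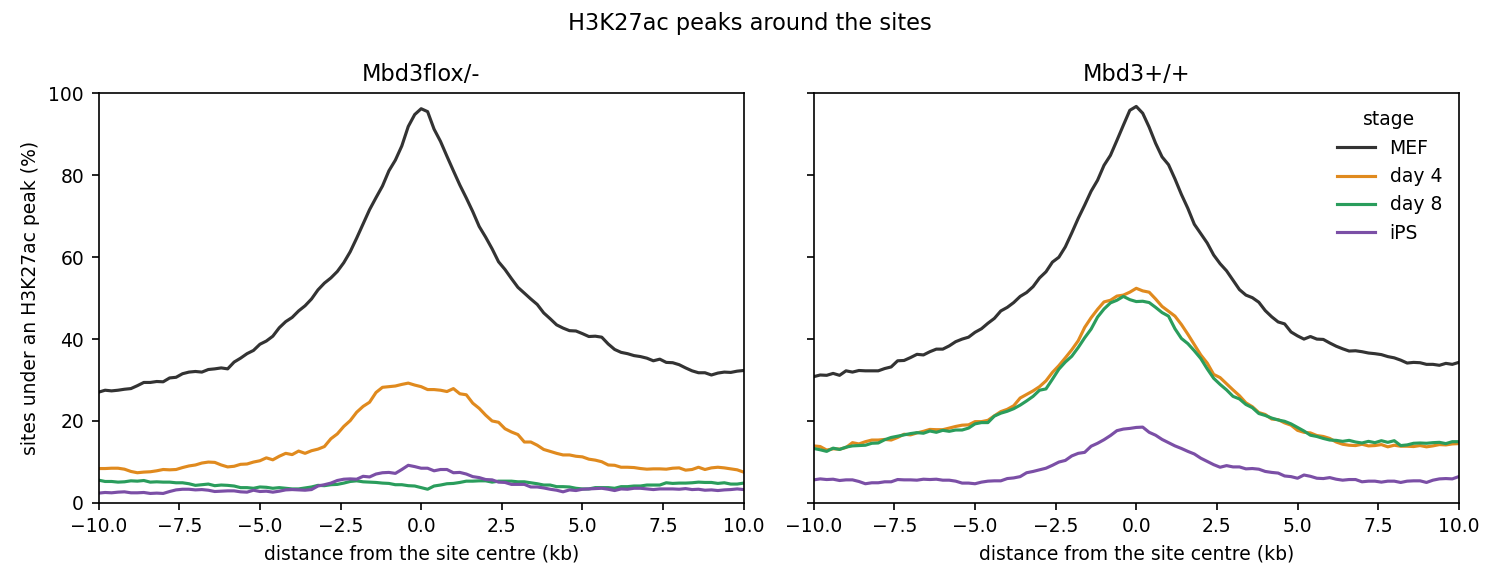
Percent of the 1265 sites at which each position, from 10 kb before to 10 kb after the site centre (horizontal axis, kb), lies under an H3K27ac peak of the stage, in Mbd3flox/- cells (left) and Mbd3+/+ cells (right). The flox/- day 8 line has no maximum at the centre (3.71%), whereas the +/+ day 8 line is at 49.2% there.

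H3K4me3 thinned out during reprogramming and was present at most sites again in iPS cells. It marked 1015 sites (80.2%) in flox/- MEF and 676 (53.4%) in +/+ MEF, beside 29.9% and 10.1% of the whole iPS H3K27me3 list. The flox/- list of MEF covered 49.0 Mb and the +/+ list 21.1 Mb, and 675 of the 676 sites marked in +/+ MEF were also marked in flox/- MEF. On day 4 the shares were 63.2% in flox/- and 42.8% in +/+ cells (25.8% and 8.64% of the list), and on day 8 they were 38.7% and 23.6% (13.2% and 6.04%). On day 8, then, 489 sites held H3K4me3 and 63 held H3K27ac in flox/- cells, whereas in +/+ cells 299 held H3K4me3 and 701 held H3K27ac.

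In iPS cells H3K4me3 was found at 943 sites (74.5%, 72.1 to 76.9) in flox/- and at 859 (67.9%, 65.3 to 70.4) in +/+ cells, beside 36.3% and 31.8% of the list. Both iPS lists marked 835 of them. Of the sites with H3K4me3 in MEF, 880 of 1015 (86.7%) had it in flox/- iPS cells and 610 of 676 (90.2%) in +/+ iPS cells. Among these, 471 sites in flox/- and 253 in +/+ cells also had it on both day 4 and day 8. Of those without it in MEF, 63 of 250 (25.2%) had it in flox/- iPS cells and 249 of 589 (42.3%) in +/+ iPS cells. The low point on day 8 also appeared at sites that later carried the mark: 455 sites of the flox/- series and 561 of the +/+ series had an H3K4me3 peak in iPS cells and none on day 8, and 1 site of each series had the reverse. The day 8 H3K4me3 lists were the smallest of their series in covered length (26.1 Mb in flox/- and 16.2 Mb in +/+ cells), and the part of list size in this dip was not tested.

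Taking the marks together, the most frequent state in iPS cells was H3K27me3 with H3K4me3 and no H3K27ac, at 812 sites (64.2%, 61.5 to 66.8) in flox/- and 597 (47.2%, 44.5 to 49.9) in +/+ cells. All 3 marks were called at 131 sites in flox/- and at 262 in +/+ cells. H3K27me3 alone was called at 321 (25.4%) in flox/- and at 392 (31.0%) in +/+ cells. H3K27ac without H3K4me3 was rare, at 1 site in flox/- and 14 in +/+ cells.

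These sites were compared with others that gained H3K27me3 without MEF acetylation. Sites shared by both iPS lists with no MEF H3K27me3 and no MEF H3K27ac peak in either list numbered 1079. There H3K4me3 reached 25.8% in flox/- and 23.2% in +/+ iPS cells, and the sites acetylated in MEF were higher by 48.8 points (45.1 to 52.2) in flox/- and by 44.7 points (41.0 to 48.2) in +/+ iPS cells. The 2 sets also differed in MEF H3K4me3, which was found at 80.2% of the 1265 sites and 8.25% of the 1079 in flox/- MEF, and at 53.4% and 0.37% in +/+ MEF. The 249 acetylated sites with H3K4me3 in neither MEF list had it at 24.9% in flox/- and 22.1% in +/+ iPS cells, close to the shares of the 1079 sites. H3K27me3 alone was the state of 74.2% of these 1079 sites in flox/- and 75.8% in +/+ iPS cells. The median width of the 1265 sites (327 bp) was above that of the 1079 (274 bp), and the part of width in these shares was not tested.

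Another set had both marks in MEF. It comprised 938 shared sites with H3K27ac in both MEF lists and H3K27me3 in at least 1 MEF list, and it was more like the 1265 sites in iPS cells: H3K4me3 stood at 83.7% in flox/- and 71.6% in +/+ cells. The 1265 sites were lower by 9.14 points in flox/- iPS cells (interval -12.5 to -5.73), and in +/+ iPS cells the difference was -3.74 points (-7.57 to 0.15).

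**Figure D3:**
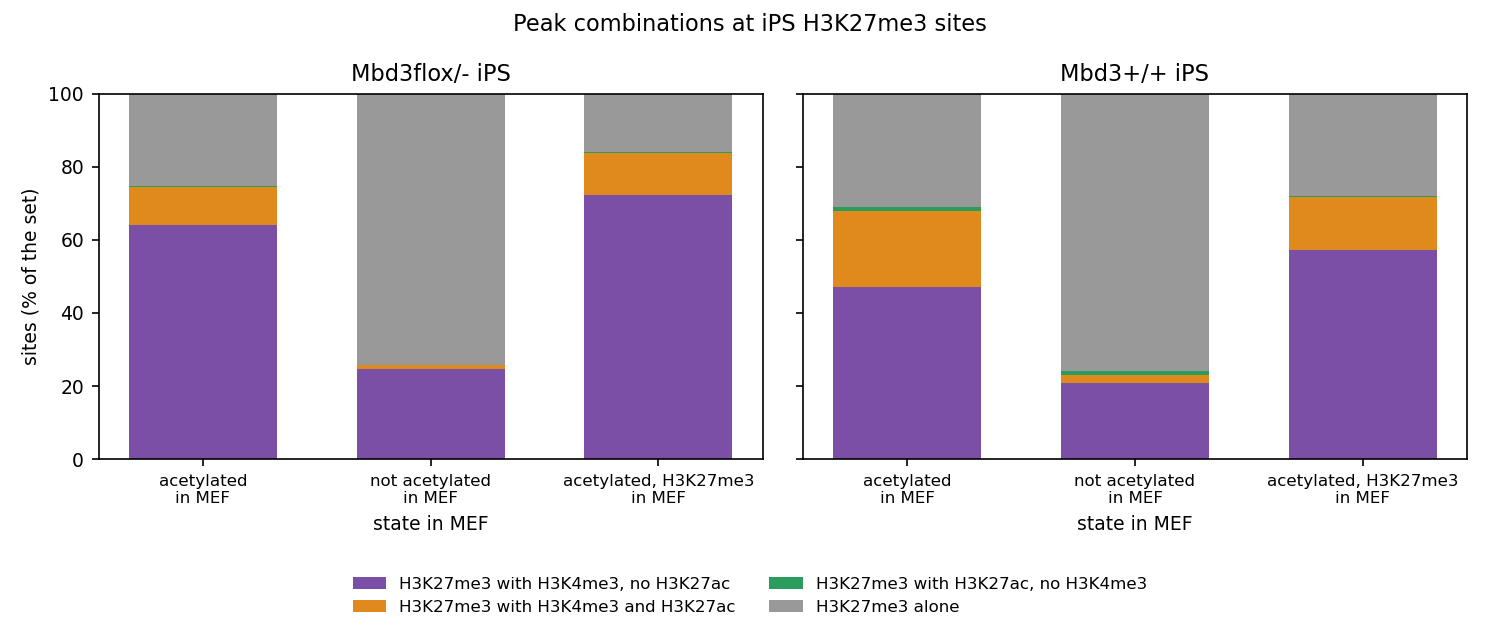
Stacked bars give the percent of sites of each set (vertical axis) in each combination of H3K4me3 and H3K27ac peaks in iPS cells, all under H3K27me3; left panel Mbd3flox/-, right panel Mbd3+/+, and the horizontal axis gives the state in MEF (1265, 1079 and 938 sites). Sites acetylated in MEF are mostly H3K27me3 with H3K4me3 (64.2% in flox/- without H3K27ac), and sites not acetylated in MEF are mostly H3K27me3 alone (74.2% in flox/-).

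The gap between genotypes in acetylation also differed between these sets. On day 4 it was -22.6 points at the 1265 sites and -2.67 points (-6.05 to 0.73) at the 938 sites with MEF H3K27me3, where 31.0% were acetylated in flox/- and 33.7% in +/+ cells. The difference between the 2 gaps was -19.9 points (-24.3 to -15.5). On day 8 the gap was -27.7 points at the 938 sites, with 3.20% acetylated in flox/- and 30.9% in +/+ cells, and the gap at the 1265 sites was larger by -22.7 points (-26.8 to -18.5). In +/+ cells, then, sites that had acetylation without H3K27me3 in MEF stayed acetylated more often than sites with both marks, by 23.1 points on day 4 (18.9 to 27.1) and 24.5 points on day 8 (20.4 to 28.4). In flox/- cells the same differences were 3.13 points on day 4 (-0.84 to 7.04) and 1.78 points on day 8 (0.08 to 3.42). At the 1079 sites without MEF acetylation, H3K27ac stayed at or under 3.61% on days 4 and 8 in both genotypes.

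**Figure D4:**
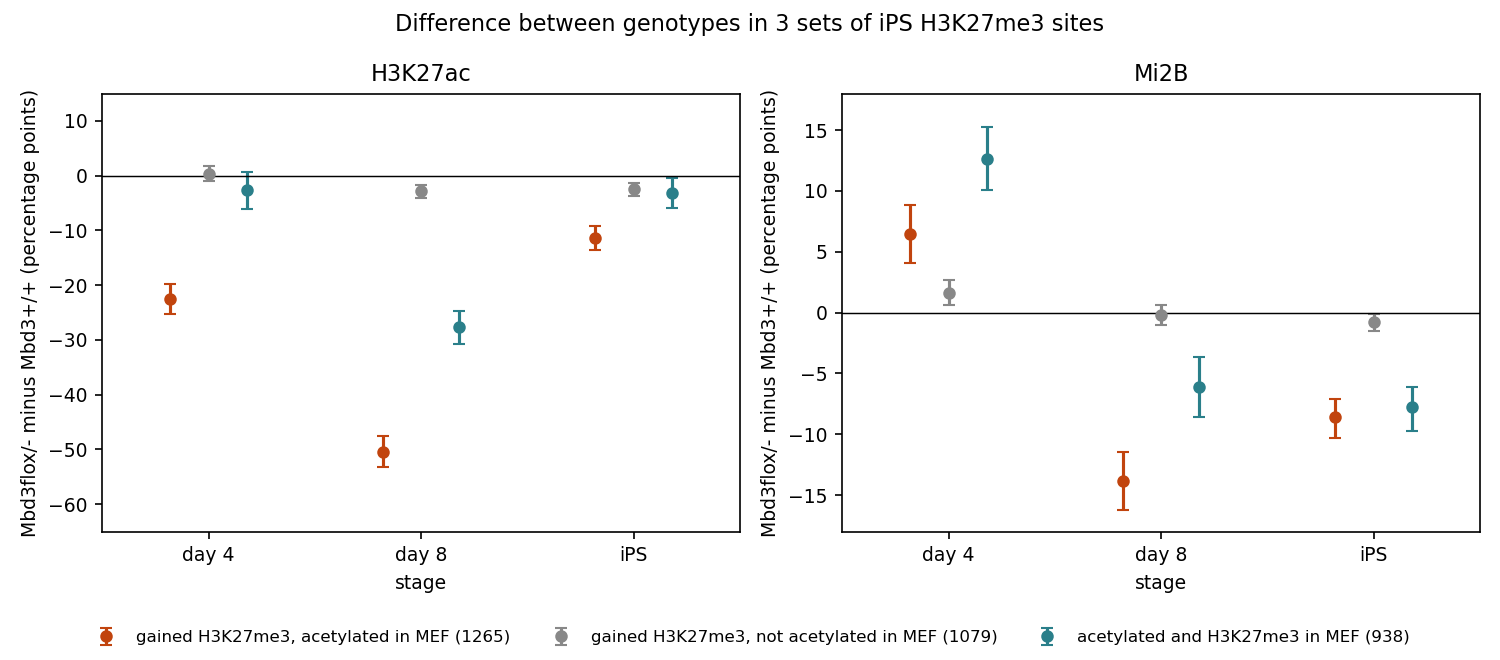
Mbd3flox/- minus Mbd3+/+ difference in the share of sites with a peak (vertical axis, percentage points, 95% paired intervals over sites) by stage (horizontal axis) for H3K27ac (left) and Mi2B (right) in 3 sets of iPS H3K27me3 sites. For H3K27ac the 1265 sites, acetylated in MEF and gaining H3K27me3 by the iPS stage, lie lowest on day 4 (-22.6) and day 8 (-50.4).

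The sites differed among themselves in MEF H3K4me3. It was present in both MEF lists at 675 sites, in 1 list at 341 and in neither at 249. Sites with H3K4me3 in both lists were acetylated more often than those with it in neither: 47.7% against 12.0% in flox/- cells on day 4, 7.11% against 2.81% in flox/- cells on day 8, 72.4% against 31.7% in +/+ cells on day 4 and 70.7% against 32.1% in +/+ cells on day 8. The gap between genotypes was present in both classes. On day 8 it was -63.6 points (-67.1 to -59.6) with H3K4me3 in both MEF lists and -29.3 points (-35.2 to -23.7) with it in neither. H3K27me3 in ES cells was found at 59.7% and 55.0% of the 2 classes (4.68 points, -2.44 to 11.9). The strength of the H3K27me3 peak went with the ES state: 78.5% of the 317 sites with the highest scores had an ES H3K27me3 peak, against 46.7% of the 317 with the lowest, with median widths of 635 and 230 bp.

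Mbd3-/- ES cells held H3K27me3 at 747 of the 1265 sites (59.1%, 56.3 to 61.7), beside 38.3% of the whole iPS list. The share was 45.0% at the 1079 sites without MEF acetylation, lower by 14.1 points (10.1 to 18.1), and 73.1% at the 938 sites with MEF H3K27me3. When the ES peak had to cover 50% of the site, it fell to 40.2%. H3K4me3 was found at 948 sites (74.9%) in ES cells, against 943 in flox/- iPS cells (difference 0.40 points, -1.22 to 2.01) and 859 in +/+ iPS cells (7.04 points, 5.34 to 8.74), beside 39.9% of the list in ES cells.

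H3K27ac was more frequent in ES cells than in either iPS line. It was found at 530 sites (41.9%, 39.2 to 44.6; 17.2% of the list), against 10.4% in flox/- and 21.8% in +/+ iPS cells, which is higher by 31.5 points (28.8 to 34.1) and 20.1 points (17.5 to 22.6). In ES cells 300 sites had H3K27me3 and H3K4me3 without H3K27ac, 265 had all 3 marks, 238 had H3K4me3 and H3K27ac without H3K27me3, and 117 had none of the 3. The ES H3K27ac list covered 120.5 Mb, close to the +/+ iPS list (122.3 Mb), whereas the flox/- iPS list covered 64.2 Mb. The part of list size in the difference between ES and flox/- iPS cells was not tested. Sites with an ES H3K27me3 peak were acetylated in ES cells at 36.7%, against 49.4% of sites without one (-12.7 points, -18.2 to -7.20). On day 8 the same classes were acetylated at 4.28% and 5.98% in flox/- cells (-1.70 points, -4.39 to 0.73) and at 55.3% and 55.6% in +/+ cells (-0.31 points, -5.85 to 5.26).

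Mi2B was found at a minority of the sites in each of the 7 lists analysed, which include none from MEF. On day 4 it marked 222 sites (17.5%, 15.6 to 19.7) in flox/- cells and 140 (11.1%, 9.46 to 12.9) in +/+ cells, beside 5.76% and 1.91% of the whole list. The difference was 6.48 points (4.11 to 8.88). The flox/- list covered 10.8 Mb and the +/+ list 3.76 Mb, and with equal summed lengths the difference was -3.32 points (-5.42 to -1.24), so its direction was not stable. On day 8 Mi2B marked 85 sites (6.72%, 5.47 to 8.23) in flox/- cells and 260 (20.6%, 18.4 to 22.9) in +/+ cells, beside 2.83% and 4.55% of the list. That difference was -13.8 points (-16.2 to -11.5). The flox/- list covered more sequence (14.6 Mb, against 12.0 Mb) but held fewer peaks (13125, against 23280). The difference was -6.72 points with equal numbers of top peaks and -16.0 points with equal summed lengths. It was -6.25 points when 50% of the site had to be covered and -8.94 points at a score of at least 100.

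In iPS cells Mi2B marked 4 sites (0.32%) in flox/- cells, whose list held 3462 peaks, and 113 (8.93%) in +/+ cells, whose list held 26992, beside 0.146% and 3.87% of the H3K27me3 list. Mbd3-/- ES cells had Mi2B at 185 sites (14.6%, 12.8 to 16.7; 6.92% of the list). Any of the 6 reprogramming and iPS lists marked 478 sites (37.8%), and 738 (58.3%) had Mi2B in none of the 7 lists, ES cells included. On day 4, 61 sites had Mi2B in both genotypes, which were 27.5% of the 222 in flox/- and 43.6% of the 140 in +/+ cells. On day 8 there were 43, which were 50.6% of the 85 in flox/- and 16.5% of the 260 in +/+ cells. These day 8 shares differ only through the unequal totals of 85 and 260. The counts over several lists and the overlaps between genotypes are given for these sites alone. No such counts were made over the whole H3K27me3 list, so whether they are particular to these sites was not tested.

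Mi2B was found more often on sites with an H3K27ac peak at the same stage and genotype, and likewise on sites with an H3K4me3 peak. In flox/- cells 32.2% of acetylated and 9.96% of non-acetylated sites had Mi2B on day 4 (difference 22.2 points, 17.4 to 27.1), and on day 8 the shares were 22.2% of 63 and 5.91% of 1202. In +/+ cells they were 16.0% and 4.57% on day 4, 30.8% and 7.80% on day 8 and 20.7% and 5.66% in iPS cells. The flox/- iPS list, with 4 marked sites, gave 0.76% and 0.26% (0.49 points, -0.31 to 3.91). ES cells showed the same order, at 25.9% and 6.53% (19.3 points, 15.2 to 23.5). Sites with and without H3K4me3 had Mi2B at 26.0% and 3.01% on day 4 and at 13.1% and 2.71% on day 8 in flox/- cells. In +/+ cells these shares were 18.85% and 5.25% on day 4, 36.45% and 15.6% on day 8 and 12.7% and 0.99% in iPS cells. They were 18.7% and 2.52% in ES cells. The parts of H3K27ac and H3K4me3 in this were not told apart. The 1079 sites without MEF acetylation had Mi2B at 2.13% in flox/- and 0.56% in +/+ cells on day 4, and at 0.65% and 0.83% on day 8. On day 8 of flox/- cells, 16.5% of the Mi2B-marked sites were acetylated and 75.3% had H3K4me3, beside 4.98% and 38.7% of all 1265 sites. In +/+ cells 83.1% of the Mi2B-marked sites were acetylated and 41.9% had H3K4me3, beside 55.4% and 23.6% of all 1265.

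Mbd3 lists were analysed for +/+ cells alone and touched few of the sites: 22 on untreated fibroblasts (1.74%), 37 on day 4 (2.92%) and 19 in iPS cells, beside 0.54%, 1.56% and 0.831% of the H3K27me3 list. Oct4, one of the induced factors, had no peak at any site in either MEF list (0 of 1265, upper Wilson limit 0.303%). Over the whole list the shares were 0.0651% for flox/- and 0.0536% for +/+ MEF. On day 4 Oct4 marked 57 sites (4.51%) in flox/- and 32 (2.53%) in +/+ cells, beside 2.89% and 1.31% of the list. It was found at 7 sites on day 8 of flox/- cells (0.919% of the list), and in iPS cells at 3 sites in flox/- and 2 in +/+ cells (0.119% and 0.528%). H3K27me3 itself was hardly detected during reprogramming: 7 sites in flox/- and 2 in +/+ cells on day 4 and 14 in +/+ cells on day 8, in lists of 567, 570 and 939 peaks, beside 0.705%, 1.36% and 1.7% of the iPS list. The timing of its arrival at the sites cannot be read from such short lists.

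Acetylated MEF peaks that held sites were compared with acetylated MEF peaks without an H3K27me3 peak in MEF or iPS cells. A site was overlapped by 667 +/+ MEF H3K27ac peaks. Of these, 99 also overlapped a MEF H3K27me3 peak and were left out. The peaks compared therefore held 1055 of the sites, not all of them. Of 45824 +/+ MEF H3K27ac peaks shared by flox/- MEF and free of MEF H3K27me3, 568 (1.24%) overlapped a site, and 43356 had no H3K27me3 peak of either iPS list. The 568 were wide, with a median of 4606 bp against 2567 bp. On day 4 H3K27ac was found at 60.0% of the 568 and 36.6% of the 43356 in flox/- cells (23.5 points, 19.4 to 27.5), and at 68.0% and 42.9% in +/+ cells (25.1 points, 21.1 to 28.8). On day 8 it was found at 17.6% and 27.5% in flox/- cells (-9.88 points, -12.8 to -6.50), and at 73.2% and 49.9% in +/+ cells (23.3 points, 19.5 to 26.8). Over all 45824 peaks the background was 37.4% in flox/- and 43.9% in +/+ cells on day 4, and 26.9% and 50.9% on day 8. In iPS cells the shares were 30.3% and 28.0% in flox/- (2.31 points, -1.35 to 6.23) and 42.4% and 35.6% in +/+ cells (6.80 points, 2.77 to 10.9), with backgrounds of 27.9% and 35.7%. The gap between genotypes was -55.6 points at the 568 and -22.4 points at the 43356 on day 8, and these differed by -33.2 points (-37.1 to -28.9). On day 4 the gaps differed by -1.58 points (-5.23 to 2.11).

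The 2 kinds of peak were unlike in MEF H3K4me3, which was present in both MEF lists at 437 of the 568 and 9761 of the 43356. They were therefore also compared within that class, where the median widths were 5049 bp and 3068 bp. The part of width was not tested. In this class the peaks that held a site were less often acetylated on day 8 in both genotypes, whereas in +/+ cells they were more often acetylated over all peaks.

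On day 8 a flox/- H3K27ac peak was found at 20.8% of the 437, against 77.9% of the 9761, a difference of -57.1 points (-60.7 to -52.9). In +/+ cells the shares were 80.8% and 96.6%, a difference of -15.8 points (-19.8 to -12.4). Over all 11088 peaks of this kind the background was 71.7% in flox/- and 95.2% in +/+ cells. The gap between genotypes was thus -60.0 points at the 437 and -18.7 points at the 9761, and these differed by -41.2 points (-45.6 to -36.2). On day 4 the background was 92% in flox/- and 91.9% in +/+ cells and the 2 gaps were -8.92 and 0.80 points, which differed by -9.72 points (-13.9 to -5.52). In iPS cells, acetylation stood at 36.6% against 81.7% in flox/- and at 49.4% against 90.1% in +/+ cells, with backgrounds of 77.1% and 86%, and the gaps differed by -4.38 points (-8.85 to 0.18). ES cells had acetylation at 73.7% against 95.4%, with a background of 93.5%. Among peaks with H3K4me3 in neither MEF list, where 74 held a site and 31879 had no iPS H3K27me3, the day 8 gaps were -36.5 and -22.9 points and differed by -13.6 points (-24.7 to -1.93). There the day 4 gaps were 2.70 and -8.87 points and differed by 11.6 points (2.06 to 21.0), the other way from the class with H3K4me3.

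Over these wider peaks H3K4me3 was found at nearly all by the iPS stage. It was found on day 8 at 82.2% of the 437 and 91.4% of the 9761 in flox/- cells and at 68.4% and 88.0% in +/+ cells, with backgrounds of 90.3% and 86.1%. In iPS cells it was found at 98.9% and 98.0% in flox/- and 98.4% and 97.8% in +/+ cells, with backgrounds of 98% and 97.8%. Mi2B was more frequent at the 437 on day 4, by 30.4 points in flox/- (62.2% against 31.8%) and 21.5 points in +/+ cells (58.1% against 36.6%), with backgrounds of 34.6% and 38.6%. On day 8 it was found at 29.7% of the 437 and 26.1% of the 9761 in flox/- cells (3.63 points, -0.55 to 8.16), and at 74.8% and 56.0% in +/+ cells (18.9 points, 14.5 to 22.8), with backgrounds of 26.3% and 57.7%. ES cells had H3K27me3 at 80.8% of the 437 and 2.29% of the 9761, with a background of 8.29%. Both kinds of peak were chosen by H3K27me3 in iPS cells, so this contrast in the same mark is given as description alone.

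**Figure D5:**
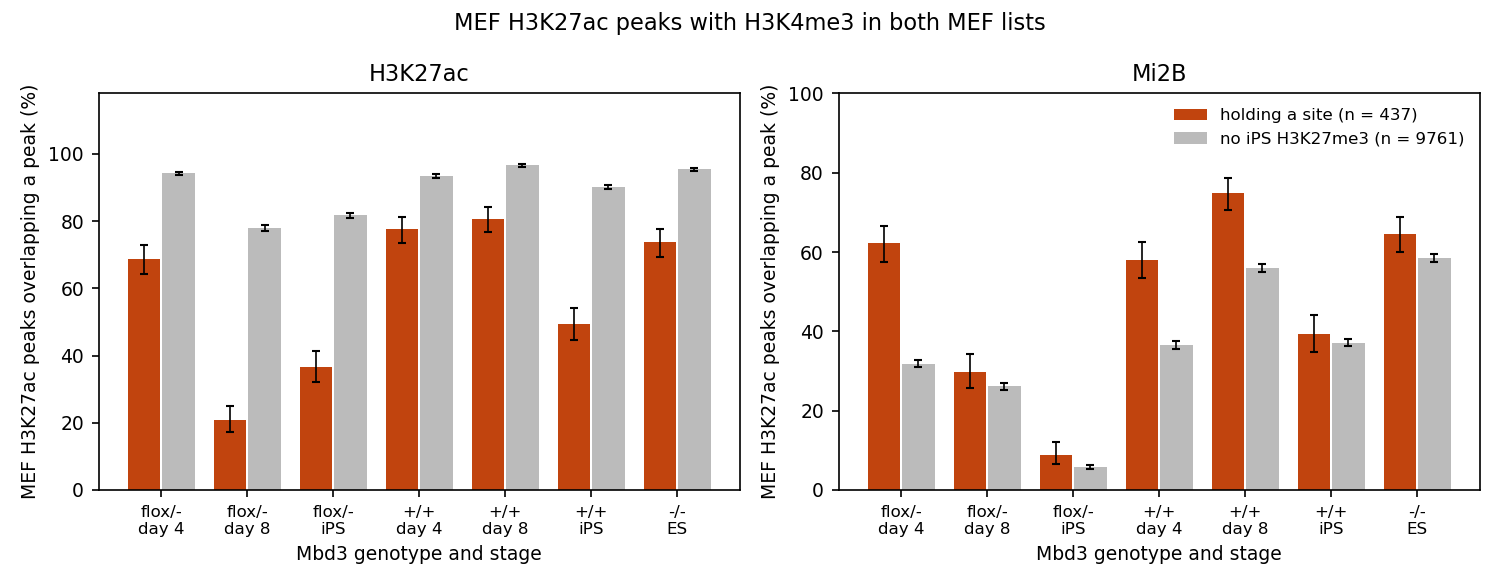
MEF H3K27ac peaks with H3K4me3 in both MEF lists and no MEF H3K27me3, as the percent that overlap a later H3K27ac (left) or Mi2B peak (right) by Mbd3 genotype and stage; red bars hold at least 1 of the 1265 sites (n = 437), grey bars have no iPS H3K27me3 peak (n = 9761), and whiskers are 95% Wilson intervals. On flox/- day 8 the red H3K27ac bar is at 20.8% and the grey one at 77.9%.

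Single sites show these courses, with the deposited peak scores as values. Scores are the authors' own and are compared only within a list. The value 3100 recurs in many lists, and some lists rise above it, to 3233.06. No site named by the ranking rules had a flox/- day 8 H3K27ac peak, whether or not the rule required it. The site with the highest H3K27me3 score in +/+ iPS cells, chr8:97851516-97854007 (613.8), had 12.2% of its bases under both MEF H3K27ac lists. It lost H3K27ac in both genotypes by day 4 and had H3K4me3 in MEF and iPS cells, with H3K27me3 (623.6) and H3K4me3 (358.4) in ES cells. The second, chr8:28088294-28090510, was 2217 bp wide and wholly acetylated in MEF. It had H3K27ac on day 4 with a score of 540.7 in the flox/- list and 1217.2 in the +/+ list, on day 8 none in flox/- and 1663.9 in +/+ cells, and a weak peak in both iPS lists (128.1 in flox/- and 93.3 in +/+). Its H3K4me3 peaks were found in all 9 lists of that mark.

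The site of the next highest H3K27me3 score lay in the largest group, on chromosome 8. At chr8:87308274-87309295 the day 4 H3K27ac scores were 2516.5 in flox/- and 3100 in +/+ cells, and on day 8 there was no peak in flox/- and a score of 3100 in +/+ cells. Over the 19 sites of that group, H3K27ac was found at 16 in flox/- and 19 in +/+ cells on day 4, at 4 in flox/- and 19 in +/+ cells on day 8, and at none in flox/- and 2 in +/+ iPS cells. ES cells had H3K27me3 at 17 of the 19. In 3 further groups flox/- acetylation was absent on day 8: 12 sites at chr14:22801441-22814020, 11 at chr13:51936948-51948261 and 10 at chr6:127098458-127104549 had none in flox/- cells and 12, 10 and 10 acetylated sites in +/+ cells. In iPS cells the first of these groups had 7 acetylated sites in flox/- and 0 in +/+ cells, the second had 3 and 0, and the group on chromosome 6 had 2 and 5.

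Some sites went without acetylation early in both genotypes. The 9 sites at chr8:73013192-73026593 had no H3K27ac on day 4, day 8 or in iPS cells of either genotype, while H3K27me3 was found at all 9 in ES cells. The member of that group at chr8:73018823-73020683 had H3K4me3 in flox/- MEF (3100) and in ES cells (1112.6) and in no other list. At chr7:137404908-137406324, wholly acetylated in MEF with scores of 3100 in both genotypes, every later H3K27ac and H3K4me3 list was empty, and H3K27me3 was present in flox/- iPS (576.7), +/+ iPS (386.7) and ES cells (93.1).

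The rule for sites with Mi2B in both iPS lists and in ES cells found 2. At chr8:35871486-35872522 H3K27ac scored 3100 in flox/- and 425.6 in +/+ cells on day 4, and on day 8 there was no peak in flox/- and a score of 1322.9 in +/+ cells. Mi2B appeared on day 8 (55.2 in flox/- and 118.1 in +/+), in iPS cells (51.4 in flox/- and 116.2 in +/+) and in ES cells (140.4), and ES cells had H3K27ac (1383.4) and no H3K27me3 there. The other, chrX:166434675-166436049, had Mi2B in all 7 lists, with H3K27ac on day 4 in flox/- cells alone and on day 8 and in iPS cells in +/+ cells alone.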

How the data were processed

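ChIP-seq peak lists of 43 libraries were used of 52 in the labels; the other 9 are input libraries without a list. The submitters' processing notes name MACS 1.4.1, Bowtie 0.12.5, CASAVA 1.8.2 and build mm9, without settings. The score deposited by the authors was at least 50 in every list. Each list comes from 1 library. Samples were grouped by title; the stage label names another day for 6 Mbd3+/+ samples (day 5 for H3K27me3, 6 for Mbd3 and 7 for Mi2B of day 4, 11 for Mi2B of day 8, and 8 and 12 for the inputs). The label of the +/+ day 8 H3K27me3 sample calls it a repeat of another record.

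A site counted as marked when it shared at least 1 bp with a peak. Shares have 95% Wilson intervals, differences over the same sites paired Newcombe intervals, and differences between sets Newcombe intervals; differences of 2 differences combine both intervals by squares. The sites, sets and lists were chosen with earlier results of these data known. Named sites are the 8 with the highest +/+ iPS H3K27me3 score, the 6 of at least 1000 bp most covered by both MEF H3K27ac lists, the 6 highest-scoring that lost H3K27ac by day 8 in flox/- alone, and those with Mi2B in both iPS lists and ES cells; the text gives a part of them, chosen after their values were seen, and the groups of neighbouring sites were chosen likewise. Gene names, gene lists and sequences are not given, because no mm9 genome or annotation was used here. Overlaps were checked against bedtools 2.31.1 and on simulated data. Python 3.11.15, numpy 2.4.6, pandas 2.3.3 and matplotlib 3.10.9 were used. MEF Mi2B, flox/- Mbd3, flox/- day 8 H3K27me3 and +/+ day 8 Oct4 were not analysed here.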

Additional observations from a re-analysis of the deposited data

Results flagged for a closer look

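In 2 instances the genotypes moved in opposite directions between the same stages at the 1265 sites. From day 8 to iPS cells the share with H3K27ac differed by 5.46 points in Mbd3flox/- cells and by -33.6 points in Mbd3+/+ cells. From day 4 to day 8 the share with Mi2B differed by -10.8 points in flox/- cells and by 9.49 points in +/+ cells. With 1 library per stage and genotype the difference between these changes was not tested. The Mi2B lists covered 10.8 Mb on day 4 and 14.6 Mb on day 8 in flox/- cells. In +/+ cells they covered 3.76 Mb and 12.0 Mb. The part of list size in the Mi2B changes was not tested.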

How the results depend on the processing

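No paired analysis was possible because each group had 1 library, so no replicate could be left out either. The number of sites was 291 at a score of at least 100 in every list and 635 with sites within 10 kb merged, and lay between 922 and 1261 in the other 4 alternatives. The day 4 and day 8 H3K27ac differences and the day 8 Mi2B difference kept their direction in all 10 alternatives each (-26.5 to -13.0, -53.3 to -40.2 and -20.0 to -6.25 points). The iPS H3K27ac difference did so in 9 (-15.0 to -5.61) and the day 4 Mi2B difference in 9 (5.12 to 7.40). Equal summed lengths of the 2 lists, chosen after seeing the data, reversed both, to 9.64 and -3.32 points; the cause was not tested. The excess of iPS H3K4me3 over sites without MEF acetylation stayed between 35.0 and 53.0 points in 6 alternatives. The H3K4me3 share in +/+ iPS cells was 74.2% at a score of at least 100, 78.7% merged, 70.7% with flox/- coordinates and 58.2% when 50% of the site had to be covered; in flox/- iPS cells it was 81.4%, 82.1% and 68.7% at the score minimum, merged and at 50% cover. The ES H3K27me3 share was 69.0% with flox/- coordinates and 40.2% at 50% cover. Requiring 50% cover by MEF H3K27ac, also added later, kept the 5 genotype differences and the 3 shares and was not run for that excess. Depth is unknown, so a missing peak means not detected.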
